A study of Sus scrofa with 35 samples.

Results

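The genes described are 10 that decide over cell survival and mitochondrial removal: the anti-apoptotic genes BCL2, BCL2L1 and MCL1, the pore-forming effectors BAX and BAK1, the BH3-only genes BCL2L11, BID and BAD, and the mitophagy receptors BNIP3 and BNIP3L. Their messenger RNA was measured in whole blood of pigs. A member was found through the probes that carry its symbol as gene name in the array files, without regard to case. Of the 10 genes, 9 had at least 1 probe and BNIP3 had none, so BNIP3 was not analysed here. The 9 genes held 29 probes, all of which were in the authors' table of 39072 log2 values, out of 60305 distinct probes on the array. There were 8 probes for MCL1, 6 for BNIP3L, 4 for BCL2L11, 3 each for BAX and BID, 2 for BCL2L1 and 1 each for BCL2, BAK1 and BAD. Probes of a gene are numbered from the brightest down by their mean over all pigs, and probe 1 represents the gene.

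Each of 35 castrated male growing pigs gave 1 array. There were 11 Creole (CR) pigs, a local Caribbean breed, 12 Large White (LW) pigs, a commercial breed, and 12 F1 pigs from crossing these breeds. The thermoneutral (TN) groups held 5 CR, 6 F1 and 6 LW pigs kept at 24 °C, and the heat stress (HS) groups held 6 pigs of each breed. HS is given as 30 °C by the sample labels and as 32 °C by the growth protocol, for 5 d, and the methods allow some HS pigs 1 day less. All pigs were kept in the same climatic room with free access to feed, and blood was taken at slaughter into PAXgene tubes, which preserve RNA. The paper reports that pigs ate less in HS, so feed intake and climate cannot be told apart. The TN pigs were slaughtered before the temperature was raised, so day of slaughter and climate cannot be told apart. Pens and littermates are not in the labels, so pigs were treated as independent. Likeness among pigs of a pen or slaughter day could make the standard errors and adjusted p-values of HS minus TN too small. The paper's model held pen, slaughter day, father and mother as random effects. It called far fewer blood probes for temperature than the 13601 of 39072 that passed here without these terms. The cause of this gap was not tested, and all calls of HS minus TN below are conditional on independent pigs.

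Proteins of the BCL2 family meet at the outer mitochondrial membrane. BAX and BAK1 open this membrane and release cytochrome c, BCL2, BCL2L1 (BCL-XL) and MCL1 hold them back, and BH3-only proteins such as BCL2L11 (BIM), BID and BAD tip the balance towards death. BNIP3L (NIX) marks mitochondria for autophagy and clears them from reticulocytes, the young red cells that still carry RNA, while BCL2L1 protects maturing red cells and MCL1 protects neutrophils and lymphocytes.

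Where probes of 1 gene share bases on the same strand, they are not separate measurements. BAX probes 2 and 3 have the same 60 bases, and all of them are in capitals.

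BAX probes 2 and 3: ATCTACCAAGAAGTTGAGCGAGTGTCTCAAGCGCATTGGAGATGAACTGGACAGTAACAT

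MCL1 probes 7 and 8 are shown because they lie on opposite strands, so they cannot both read the same RNA strand. The 57 bases in capitals of each are the reverse complement of those of the other.

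MCL1 probe 7: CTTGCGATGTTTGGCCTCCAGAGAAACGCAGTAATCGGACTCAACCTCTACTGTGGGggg

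MCL1 probe 8: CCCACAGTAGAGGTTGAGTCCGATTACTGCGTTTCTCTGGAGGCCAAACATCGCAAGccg

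BCL2L11 probes 2 and 3 share 54 bases, of which the first 30 are given in capitals, and share no stretch of this kind with probe 1, of which 30 bases are given in lower case. These stretches are shown because the probes gave different answers.

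BCL2L11 probes 2 and 3: TTAATGCATATTACCCAAGGAGGGTAATGC

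BCL2L11 probe 1: acccagcatatgtagcatttgtattgcaat

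For BCL2L1, 30 bases of probe 1 are shown with the polyadenylation signal AATAAA in capitals, and probe 2 is shown whole. AATAAA on the strand as printed was found in 3 of the 29 member probes (10.3%), BCL2L1 probe 1, BAX probe 1 and BAD probe 1, and in 11.7% of all probes of the table. Both BCL2L1 probe 2 and the BAK1 probe, also given whole, have a reading frame without a stop codon, as do 81.3% of the probes of the table.

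BCL2L1 probe 1: gtgcagttcagtAATAAActgtgttgattc

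BCL2L1 probe 2: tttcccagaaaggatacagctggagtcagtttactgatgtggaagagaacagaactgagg

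BAK1 probe: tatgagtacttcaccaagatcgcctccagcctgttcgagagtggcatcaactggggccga

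MCL1 probes 3 and 4 share 57 bases. No pair of BNIP3L or BID probes shares a long stretch of bases, and which transcripts they read was not tested.

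The first question was whether HS changed these genes over all breeds. BNIP3L fell in HS pigs at all of its 6 probes, BCL2L1 fell at its brighter probe, and BCL2L11 fell at the overlapping pair of its probes. BAK1, BAX probe 3 and BID probe 3 rose, by much less. MCL1, BCL2 and BAD had no probe that passed. In limma, with breed and climate as additive terms and 35 pigs, 12 of the 29 member probes passed an adjusted p of 0.05, 3 of them up-regulated and 9 down-regulated. Of all probes tested, 34.8% passed, 20.1% upwards and 14.7% downwards, and the p-values were adjusted over all of them by the Benjamini-Hochberg procedure. The share among members upwards was thus below that of all probes and the share downwards above it, with 6 of the 9 falls coming from BNIP3L alone. The median change of the member probes was 0.07 on the log2 scale, against 0.06 over all probes. With 1 probe per gene, 3 of the 9 members passed (BNIP3L, BCL2L1 and BAK1), beside 39.5% of the 8811 named genes. With the mean over all probes of a gene, 6 members passed, and BCL2L11, BAX and BAD were the additional 3, beside 40.8% of the named genes in that fit. BAD has 1 probe, so its difference of 0.16 was the same in both fits. Its limma adjusted p was 0.0533 in the fit over probes and 0.0432 in the fit over 8811 genes. The counts over probes rest on the F1 pigs: without them, 0 of the 29 member probes and 0 of all probes passed in limma. An unadjusted p under 0.05 was then found for 7 member probes and for 17.5% of all probes.

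**Figure D1:**
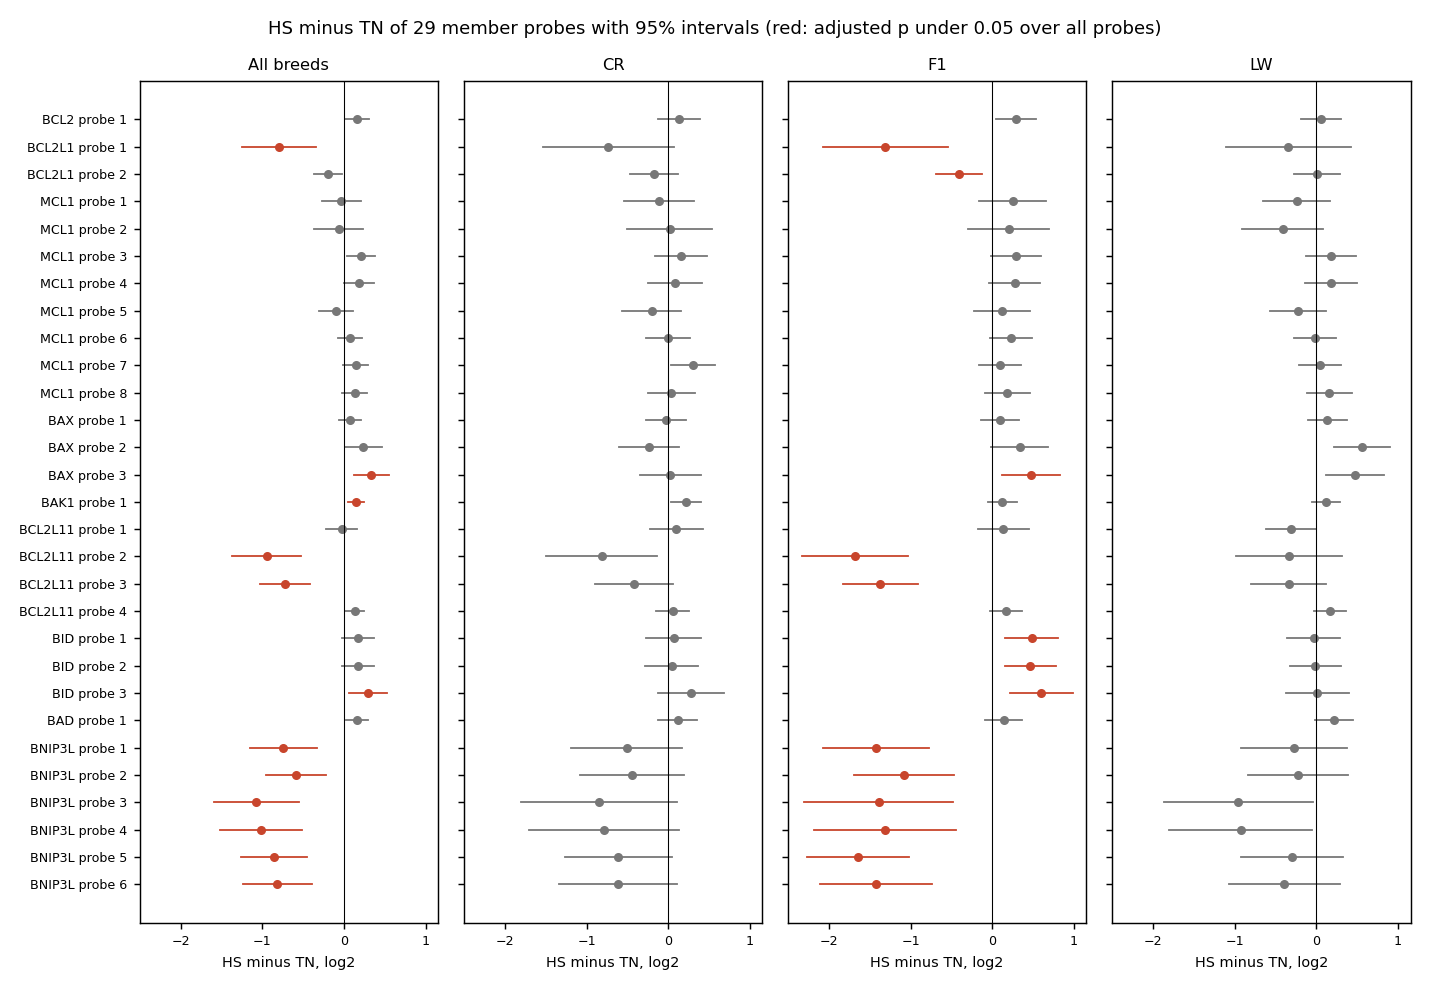
HS minus TN on the log2 scale for the 29 member probes (rows), over all breeds and in CR, F1 and LW pigs (panels), from limma. Points are estimates and lines 95% intervals. Red marks an adjusted p under 0.05. All 6 BNIP3L probes are red over all breeds and in F1 pigs, where 14 probes passed, and no probe is red in CR or LW pigs.

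Within breeds, the same falls passed in F1 pigs. In F1 pigs, 14 of the 29 member probes passed, 4 up and 10 down, where 38.7% of all probes passed, 20.8% upwards and 17.9% downwards. In CR pigs and in LW pigs 0 member probes passed in limma, as did 0.00% of all probes. With array weights, 1 member probe and 4.39% of all probes passed in CR pigs. In the fit without weights, 3 and 5 member probes had an unadjusted p under 0.05, beside 8.87% and 8.71% of all probes. The difference between breeds was tested itself: 0 member probes passed for the interaction of breed and climate, the smallest adjusted p being 0.278, and 5 had an unadjusted p under 0.05. Of all probes, 0.00% passed and 14.9% had such an unadjusted p. The response to HS was therefore not shown to differ between F1 and the parental breeds for any member.

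Among the anti-apoptotic genes, BCL2L1 fell. At probe 1 the 5 CR TN pigs had normalized log2 intensities of 11.03, 11.56, 12.59, 13.01 and 13.68, and the CR HS pigs lay between 10.88 and 12.82 with a median of 11.56. F1 TN pigs ranged from 12.03 to 14.03 with a median of 12.74 and F1 HS pigs from 10.39 to 12.19 with a median of 11.73. LW TN pigs ranged from 11.94 to 13.15 (median 12.65) and LW HS pigs from 11.86 to 12.74 (median 12.20). HS pigs were lower in each breed on average, and 16 of 18 lay below the TN mean of their breed, but the groups overlapped in every breed. HS minus TN was -0.80 over all breeds (SE 0.224, n = 35, limma adjusted p = 0.00768), a level 1.74-fold lower. It was -1.31 in F1 pigs (adjusted p = 0.00753), -0.73 in CR pigs (95% interval -1.53 to 0.07) and -0.34 in LW pigs (-1.11 to 0.42).

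BCL2L1 probe 2 was dim, well above background on 26 of 35 arrays. Its difference was -0.19 over all breeds (adjusted p = 0.070) and -0.41 in F1 pigs (adjusted p = 0.0194). The latter did not pass in 3 of the fits that left out 1 pig, with a smallest size of -0.33 without F1 TN replicate 4. The 2 probes correlated at r = 0.69 over the 35 pigs once group means were subtracted, given as a description.

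MCL1 was measured by 8 probes and did not pass at any of them. HS minus TN ranged from -0.10 to 0.21, with adjusted p between 0.0592 and 0.860. At probe 1, CR TN pigs lay between 13.45 and 14.52 and CR HS pigs between 13.47 and 13.98. F1 TN pigs spanned 13.02 to 14.02 and F1 HS pigs 13.04 to 14.22, while LW TN pigs spanned 13.24 to 14.10 and LW HS pigs 13.06 to 13.86. The groups overlapped throughout, and the difference of -0.03 had a 95% interval of -0.28 to 0.21. The strand pair differed by 0.14 at probe 7 and 0.13 at probe 8, neither of which passed, with r = 0.35 between them within groups. The 57 shared bases of probes 3 and 4 gave 0.21 and 0.18, with r = 0.96. Probes 1 and 5 also moved together (r = 0.94), whereas probes 1 and 3 did not (r = 0.05).

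BCL2 itself had 1 probe near background, well above it on 32 of 35 arrays and on 3 of the 6 F1 TN arrays. F1 TN pigs ranged from 5.21 to 5.69 with a median of 5.55, and F1 HS pigs from 5.59 to 6.04 with a median of 5.79. The HS pigs all lay above the F1 TN mean, but the ranges overlapped. The difference was 0.16 over all breeds (SE 0.071, adjusted p = 0.0731) and 0.29 in F1 pigs (adjusted p = 0.0528), so neither passed. Both lay near the threshold. Over all breeds it passed in 5 of the 35 fits that left out 1 pig. In F1 pigs it passed with slide as a fixed block (limma adjusted p = 0.0376) and with recomputed quantile values (0.0393). The same held for those values without a filter on dim probes (0.0477) and for the fit over gene means (0.0440). It did not pass there with scaling on the 75th percentile (0.0628) or with background correction (0.0759). Nor did BCL2 pass in F1 pigs with the mean of red cell markers or array brightness as a covariate.

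**Figure D2:**
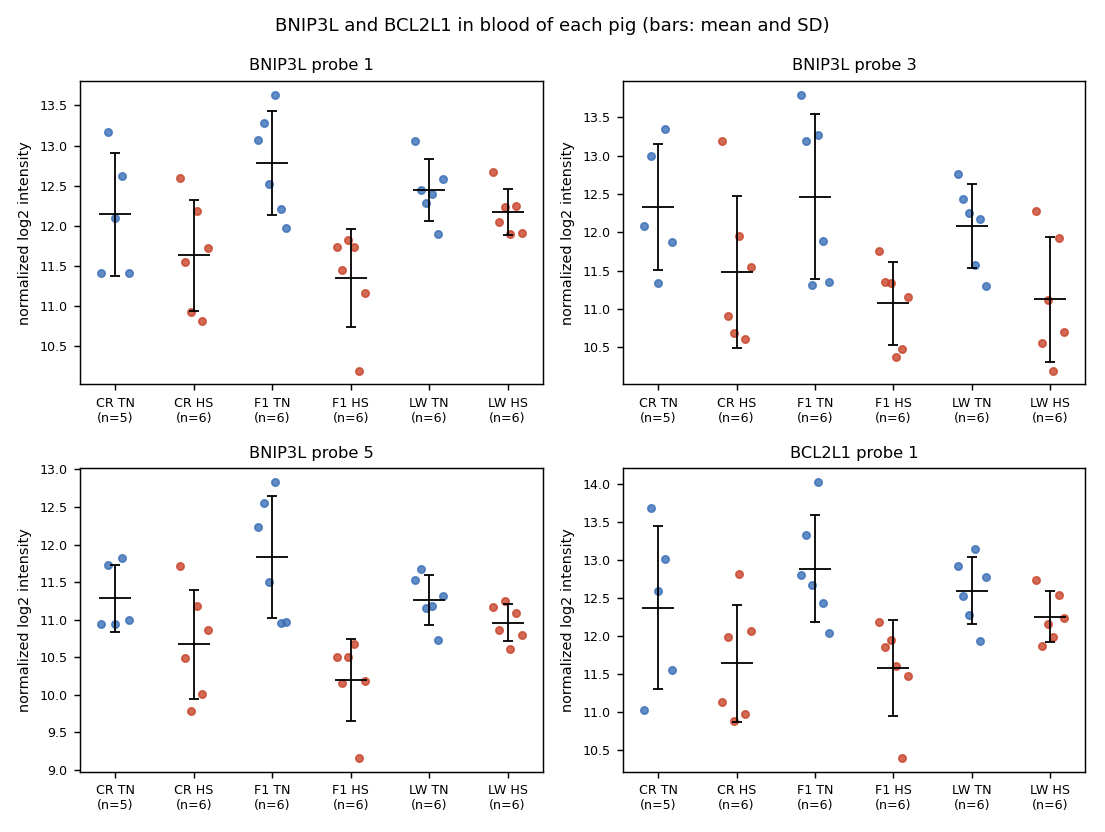
Normalized log2 intensity of BNIP3L probes 1, 3 and 5 and of BCL2L1 probe 1 in each pig (points), by breed and climate (TN blue, HS red). Bars give the mean and SD of a group. For BNIP3L probes 1 and 5 no F1 HS pig reaches the lowest F1 TN pig, while for BNIP3L probe 3 and BCL2L1 the groups overlap.

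Of the effectors, BAK1 rose by a small amount. CR TN pigs had values of 5.88, 5.89, 6.06, 6.12 and 6.16, and CR HS pigs ranged from 6.20 to 6.30 with a median of 6.24. The F1 TN pigs lay between 5.95 and 6.28 (median 6.07) and the F1 HS pigs between 6.13 and 6.35 (median 6.21). LW TN pigs ranged from 5.86 to 6.28 (median 5.98) and LW HS pigs from 5.93 to 6.39 (median 6.13). CR HS pigs all lay above CR TN pigs, which 0.417% of all probes showed, while the F1 and LW groups overlapped. HS minus TN was 0.15 over all breeds (SE 0.049, adjusted p = 0.0191), and 16 of 18 HS pigs lay above the TN mean of their breed. The adjusted p stayed at or below 0.0348 when each pig was left out in turn. BAK1 did not pass in limma with array brightness as a covariate (adjusted p = 0.0574). Nor did it pass with the mean of red cell markers as a covariate (0.236) or without F1 pigs (0.237).

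The identical BAX probes fell on either side of the threshold. Probe 3 was 0.34 higher in HS pigs (SE 0.106, adjusted p = 0.0152) and probe 2, with the same bases, was 0.23 higher (SE 0.112, adjusted p = 0.0991). At probe 3, F1 TN pigs ranged from 5.68 to 6.36 (median 5.97) and F1 HS pigs from 6.17 to 6.58 (median 6.50). LW TN pigs ranged from 5.78 to 6.24 (median 6.09) and LW HS pigs from 6.06 to 6.86 (median 6.54), and the CR groups shared most of their range. The groups overlapped in each breed, and 16 of 18 HS pigs lay above the TN mean of their breed. In F1 pigs probe 3 was 0.48 higher (adjusted p = 0.0311), a call lost in 7 of the 35 fits that left out 1 pig. The pair correlated at r = 0.83 within groups. BAX probe 1, which reads another stretch, showed 0.07 (95% interval -0.07 to 0.21). At the threshold, a change of BAX thus rested on 1 of 3 probes, though all 3 were higher in HS pigs over all breeds. In CR pigs the 3 probes ranged from -0.23 to 0.03. The mean over the 3 probes, 2 of them with the same bases, was 0.21 higher over all breeds (limma adjusted p = 0.0475). A further probe, described as similar to BAX but not named so, was 0.32 higher (limma adjusted p = 0.00898).

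Among the BH3-only genes, the probes of BCL2L11 disagreed. At probe 2 the CR TN pigs had 8.65, 8.83, 8.99, 9.42 and 10.08 and the CR HS pigs ranged from 7.44 to 9.34 with a median of 8.42. Among F1 pigs, TN values spanned 9.34 to 10.08 (median 9.89) and HS values 7.01 to 9.07 (median 8.27). LW TN pigs ranged from 8.31 to 9.55 (median 9.20) and LW HS pigs from 8.45 to 9.34 (median 8.69). No F1 HS pig reached an F1 TN pig, and 16 of 18 HS pigs lay below the TN mean of their breed. HS minus TN was -0.95 (SE 0.206, adjusted p = 0.00181) and -1.69 in F1 pigs (adjusted p = 0.000324), a level 3.22-fold lower.

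BCL2L11 probe 3, which shares 54 bases with probe 2, gave -0.72 (SE 0.152, adjusted p = 0.00165) and -1.38 in F1 pigs (adjusted p = 0.000211), again with separate F1 groups. Probe 1, the brightest, gave -0.03 (SE 0.093, adjusted p = 0.820). Probe 4 was well above background on 25 of 35 arrays and gave 0.13 (adjusted p = 0.0648). Within groups, probe 1 ran against probe 2 (r = -0.35), and probe 4 did so too (r = -0.58). No single direction can therefore be given for BCL2L11, and which transcripts the probes read was not tested.

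**Figure D3:**
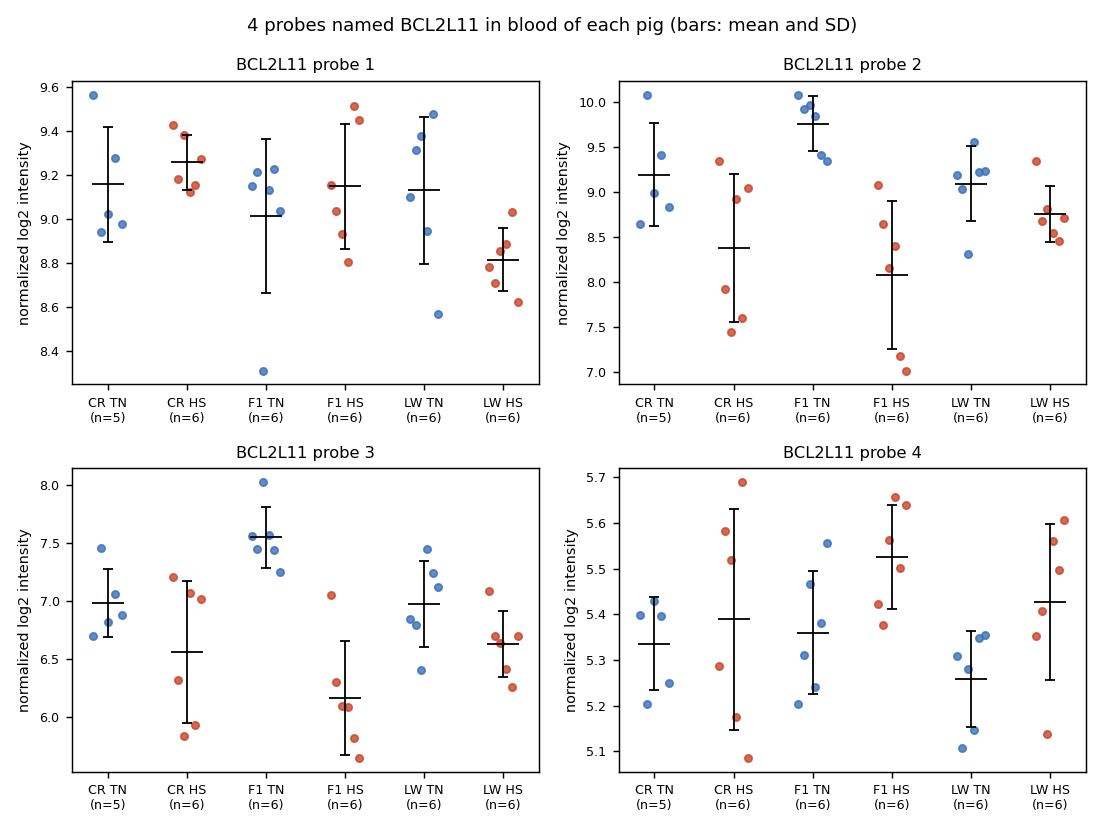
Normalized log2 intensity of the 4 probes named BCL2L11 in each pig (points), by breed and climate (TN blue, HS red), with the mean and SD of each group. Probes 2 and 3 separate F1 TN pigs from F1 HS pigs, whereas probes 1 and 4 do not.

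BID rose at probe 3. F1 TN pigs ranged from 7.77 to 8.93 with a median of 8.28 and F1 HS pigs from 8.46 to 9.33 with a median of 8.92, so the groups overlapped. CR TN pigs ranged from 8.07 to 8.98 (median 8.61) and CR HS pigs from 8.54 to 9.09 (median 8.82), while LW TN and LW HS pigs had medians of 8.41 and 8.43. HS minus TN was 0.30 over all breeds (SE 0.116, adjusted p = 0.0444). This call did not hold in 18 of the 35 fits that left out 1 pig, in which the adjusted p reached 0.0809. Probes 1 and 2 were both 0.17 higher and did not pass (adjusted p = 0.160 and 0.162). In F1 pigs alone all 3 BID probes passed, with rises of 0.46 to 0.60. The calls of probes 1 and 2 were both lost without F1 TN replicate 4 (0.42 and 0.40) and without F1 HS replicate 5 (0.39 and 0.37), and that of probe 2 also without F1 TN replicate 2. No BID probe passed in F1 pigs with array weights, with values of 0.30 to 0.42. The values for LW pigs lay between -0.04 and 0.01.

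BAD had 1 probe and was the member that differed by breed. CR TN pigs had values of 11.16, 11.18, 11.27, 11.30 and 11.46, and CR HS pigs ranged from 11.11 to 11.81 (median 11.25). F1 TN pigs ranged from 10.75 to 11.18 (median 10.98) and F1 HS pigs from 10.83 to 11.32 (median 11.10). LW TN pigs ranged from 10.64 to 11.10 (median 10.83) and LW HS pigs from 10.94 to 11.27 (median 11.07). In TN conditions every CR pig lay above every LW pig, which 0.264% of all probes showed, while in HS the ranges overlapped. CR minus LW was 0.35 (SE 0.0794, adjusted p = 0.0179), and BAD was the only 1 of the 29 member probes to pass, beside 1.08% of all probes, 0.571% with CR higher. Within slides 1 to 4, CR minus LW lay between 0.20 and 0.57. F1 pigs were 0.31 below CR pigs (adjusted p = 0.137) and differed by 0.04 from LW pigs (95% interval -0.12 to 0.20). No member probe passed for F1 minus CR, where 0.184% of all probes did, or for F1 minus LW, where 0.0256% did. An unadjusted p under 0.05 was found for 2 and 1 member probes, beside 4.95% and 4.48% of all probes. HS minus TN of BAD was 0.16 (SE 0.064, adjusted p = 0.0533), and it passed in 10 of the 35 fits that left out 1 pig.

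**Figure D4:**
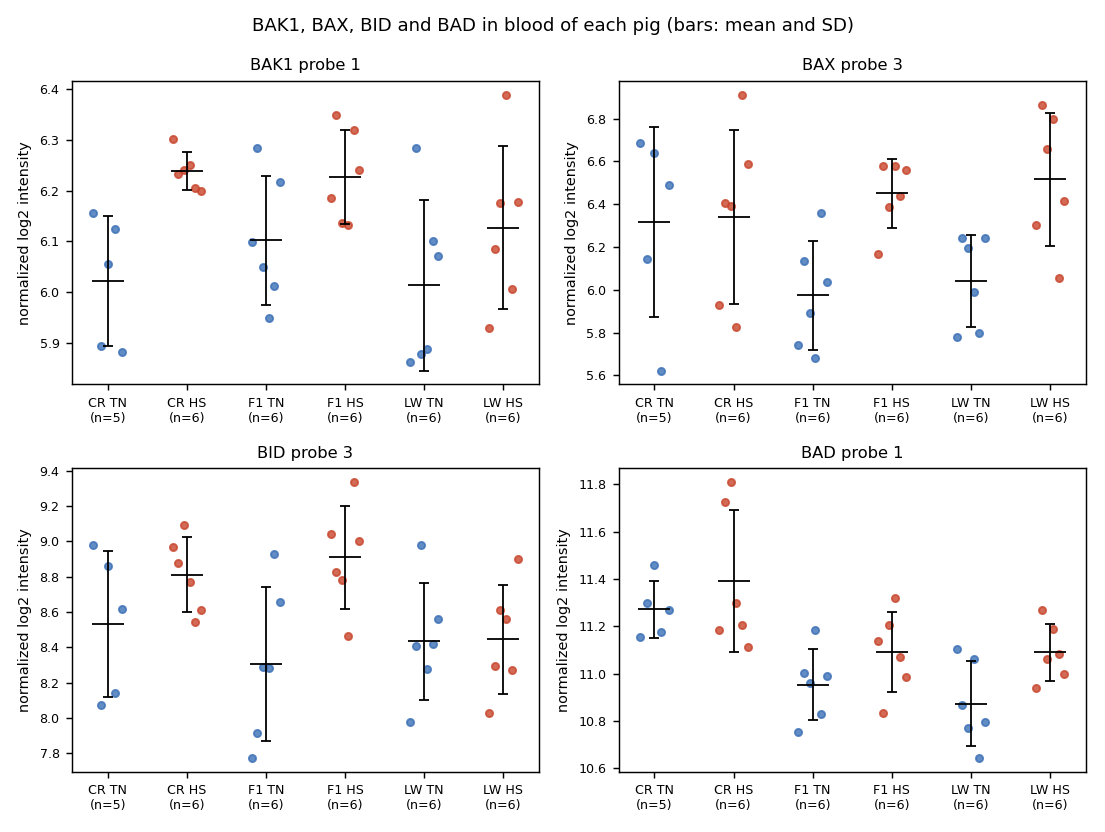
Normalized log2 intensity of BAK1, BAX probe 3, BID probe 3 and BAD in each pig (points), by breed and climate (TN blue, HS red), with the mean and SD of each group. CR HS pigs lie above CR TN pigs for BAK1, and for BAD the CR TN pigs, at 11.16 to 11.46, lie above the LW TN pigs, at 10.64 to 11.10.

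BNIP3L, the mitophagy receptor of maturing red cells, fell at every probe. At probe 1 the CR TN pigs had 11.41, 11.42, 12.09, 12.62 and 13.17, and the CR HS pigs ranged from 10.82 to 12.59 with a median of 11.64. F1 TN pigs ranged from 11.97 to 13.63 (median 12.80) and F1 HS pigs from 10.20 to 11.82 (median 11.60). LW TN pigs ranged from 11.90 to 13.06 (median 12.42) and LW HS pigs from 11.90 to 12.67 (median 12.14). The F1 groups were separate, the CR and LW groups overlapped, and 15 of 18 HS pigs lay below the TN mean of their breed. HS minus TN was -0.75 (SE 0.202, adjusted p = 0.00604), a level 1.68-fold lower, and -1.43 in F1 pigs (adjusted p = 0.00126), 2.69-fold lower.

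Over the 6 BNIP3L probes the difference ranged from -0.59 to -1.07 over all breeds, with adjusted p between 0.00253 and 0.0140. It ranged from -1.08 to -1.64 in F1 pigs, from -0.44 to -0.85 in CR pigs and from -0.22 to -0.96 in LW pigs. At probes 3 and 4 the F1 call was lost in 1 and 2 of the fits that left out 1 pig (highest adjusted p 0.0552 and 0.0538). Probes 1, 5 and 6 separated the F1 groups, with HS lower. Together with BCL2L11 probes 2 and 3, 5 of the 29 member probes did so, where 8.08% of all probes did. No member probe separated them with HS higher, which 3.59% of all probes did.

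Within groups, BNIP3L probes 3 and 4 followed each other most closely (r = 0.99), then probes 1 and 6 (r = 0.97) and probes 1 and 5 (r = 0.92). The value for probes 1 and 3 was lower (r = 0.72), and probe 2 reached at most r = 0.75 with any other. In LW pigs, HS minus TN was -0.96 and -0.93 at probes 3 and 4 (95% intervals -1.87 to -0.04 and -1.80 to -0.05) and -0.28 and -0.39 at probes 1 and 6. The difference between probes was not tested.

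Among the BNIP3L probes, the fall in F1 pigs exceeded that in LW pigs most at probe 5, with an F1 minus LW difference of the HS effects of -1.34 (95% interval -2.22 to -0.46, unadjusted p = 0.00404). Its adjusted limma p was 0.122 and did not pass. At probe 3 the corresponding difference was -0.43 with an interval of -1.73 to 0.86. For BCL2L11 probes 2 and 3 it was -1.35 and -1.03, both with an adjusted p of 0.122.

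Red cell genes moved with these falls. Of 18 measured genes of a list of erythroid markers, 8 fell and 1 rose in HS pigs, where 16.8% of all named genes fell and 22.8% rose, and 16 of the 18 were well above background on every array. The mean of the list was 10.17 ± 0.65 (SD, n = 6) in F1 TN pigs and 9.21 ± 0.63 in F1 HS pigs, with a range of 9.32 to 11.28 against 8.15 to 9.84. In CR pigs it ranged from 9.10 to 10.44 in TN and from 8.66 to 10.25 in HS, and in LW pigs from 9.53 to 10.35 and from 9.07 to 10.04. HS minus TN of the list was -0.95 in F1, -0.43 in CR and -0.26 in LW pigs, the same order as for BNIP3L probe 1 and BCL2L1 probe 1. A list of neutrophil markers had the same order, with -0.56, -0.34 and -0.21, so the order was not particular to red cell genes. BNIP3L probes 3 and 4 did not keep this order, with -0.85 and -0.79 in CR pigs against -0.96 and -0.93 in LW pigs. The largest falls were those of CA1, a carbonic anhydrase of red cells, with -1.41 and 5 of 5 probes down, HEMGN, a nuclear protein of red cell precursors, with -1.25, and TFRC, the transferrin receptor, with -1.11 and 1 of 3 probes down. SLC4A1, the anion exchanger of the red cell membrane, rose by 0.27 at 1 of its 2 probes. The mean of these markers itself fell in HS pigs, so their part in the falls of BNIP3L and BCL2L1 cannot be told apart from that of climate.

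With the mean of these markers as a covariate, the falls were smaller and none of the 29 member probes passed in limma, while 6 had an unadjusted p under 0.05, beside 23.4% of all probes. BNIP3L then ranged from -0.24 to -0.63 over its 6 probes (adjusted p 0.136 to 0.316), BCL2L1 probe 1 was -0.23 (adjusted p = 0.395) and BCL2L11 probe 2 was -0.63. Among all 39072 probes, 6 passed in this model. In F1 pigs, 3 member probes passed with the covariate, BCL2L11 probes 2 and 3 at -1.25 and -1.15 and BNIP3L probe 5 at -0.92, where 10.9% of all probes passed, a share near that of the members. In whole blood, fewer cells of a type and less RNA per cell cannot be told apart.

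Of all named genes, 22.8% rose and 16.8% fell, and the counts for the white cell lists other than B cells were near or below these shares. Of 13 neutrophil markers 1 fell, of 9 cytotoxic lymphocyte markers 2 fell, and 2 of 8 monocyte markers, 3 of 12 T cell markers and 4 of 8 B cell markers rose, while none of 6 platelet markers passed. The mean of the B cell list was 0.46 higher in F1 HS than in F1 TN pigs and that of the neutrophil list 0.56 lower, the latter with SDs of 0.75 and 1.03 among pigs. Their part in the changes of BID, BAX and BAK1 was not tested.

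F1 arrays also differed in brightness. The 75th percentile of the processed intensity was 149.9 ± 28.3 (SD, n = 6) on F1 TN and 237.9 ± 35.6 on F1 HS arrays, over a range of 112 to 329 on all arrays. With this brightness as a covariate, chosen after the data had been seen, 7 member probes passed over all breeds, BCL2L11 probes 2 and 3 and 5 of the 6 BNIP3L probes, where 17.2% of all probes passed. In F1 pigs 0 member probes and 0 of all probes passed in this limma model. There, 3 member probes had an unadjusted p under 0.05, beside 14.9% of all probes. All slides held arrays of several groups, and within slides 1 to 4 BCL2L1 probe 1 ranged from -1.22 to -0.78 and BNIP3L probe 1 from -1.03 to -0.54. BNIP3L probes 3 to 6 were also lower in HS on each of these slides, whereas probe 2 ranged from -1.01 to 0.20 and was higher in HS on slide 1. Slide 5 held too few arrays for such a value.

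**Figure D5:**
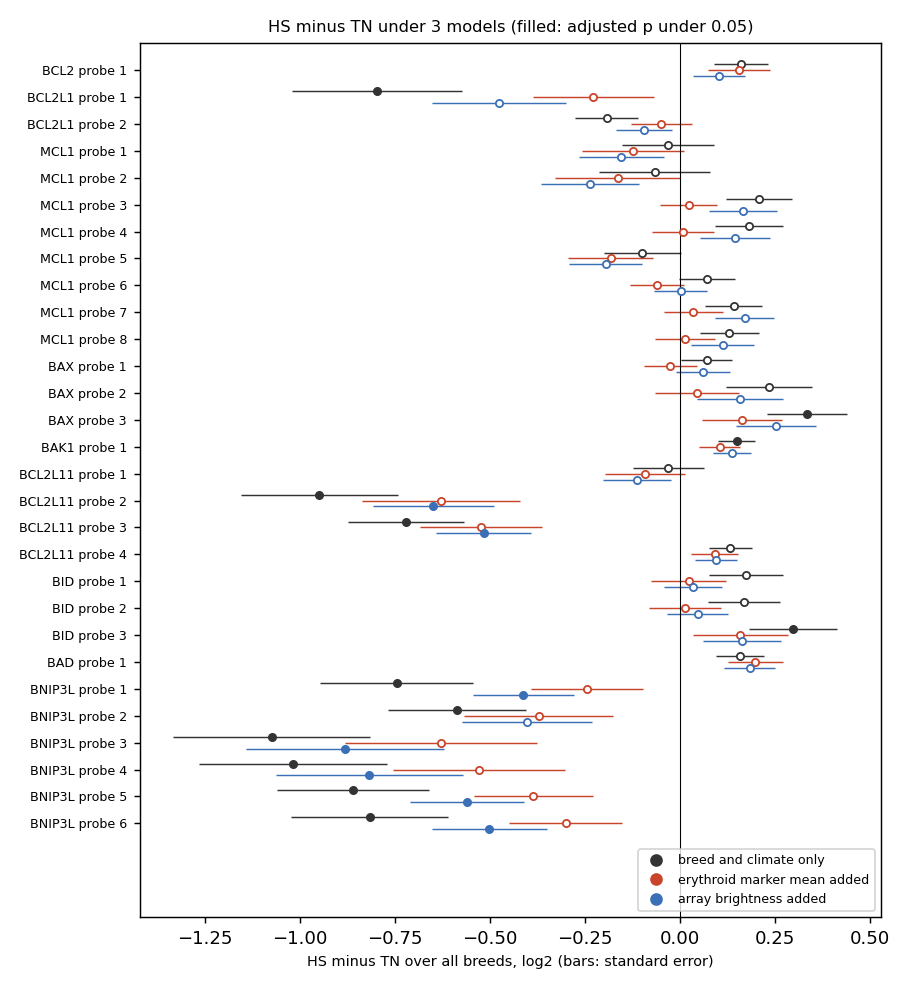
HS minus TN over all breeds on the log2 scale for the 29 member probes under 3 limma models: breed and climate only, with the erythroid marker mean added, and with array brightness added. Bars are standard errors and filled points passed an adjusted p of 0.05. BNIP3L probe 1 moves from -0.75 to -0.24 with the erythroid mean and to -0.41 with brightness.

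The genes whose level ran most like a member over the 35 pigs, after group means were subtracted, were searched for the members whose first probe passed. Out of 8802 genes, those closest to BNIP3L were MXI1, a partner of MAX that opposes MYC (r = 0.93), NCOA4, the receptor for autophagy of ferritin (r = 0.93), and TFDP2, a partner of E2F factors (r = 0.92). All of these fell in HS pigs, with HS minus TN of -0.97, -1.11 and -1.28. For BCL2L1 they were UBE2H, a ubiquitin-conjugating enzyme (r = 0.88), EPB41, a protein of the red cell skeleton (r = 0.88), and RNF123, a ubiquitin ligase (r = 0.87). These also fell, with -0.54, -0.88 and -0.67. BAK1 had no such close partner, the highest r being 0.57 for ANKRD49.

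Other genes of the pathway were read from 4 lists, with 1 probe for each gene. Of 8 further relatives of BCL2, 1 rose and none fell, and the median was -0.08 against 0.06 over all named genes, of which 22.8% rose and 16.8% fell. The gene that rose was BCL2L2 (BCL-W), an anti-apoptotic relative, by 0.24 (adjusted p = 0.0147). BCL2A1, the inducible relative of leukocytes, differed by 0.10 (adjusted p = 0.437), and PMAIP1 (NOXA), which binds MCL1, by -0.16 (adjusted p = 0.316).

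Of 16 genes of the apoptosome and the outer membrane, 4 rose and 1 fell, with a median of 0.14. Of all named genes, 22.8% rose and 16.8% fell. The largest rises were those of BCAP31, an endoplasmic reticulum protein cleaved in apoptosis, by 0.42, CYCS, cytochrome c itself, by 0.38, and TMBIM6 (BAX inhibitor 1) by 0.23. CYCS passed at 2 of its 13 probes, TMBIM6 at 3 of 7 and BCAP31 at 2 of 2. BIRC2, a member of the inhibitor of apoptosis family, fell by 0.42.

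Of 23 mitophagy and autophagy genes, 2 rose and 3 fell, with a median of -0.01, where 22.8% of all named genes rose and 16.8% fell. TAX1BP1, an autophagy receptor, fell by 0.94, and GABARAPL2 and GABARAP, of the ATG8 family whose members bind BNIP3L, fell by 0.74 and 0.41. All 3 fell at both of their probes. FUNDC2 and NBR1 rose by 0.24 and 0.23, each at 1 of its 2 probes.

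Of 24 regulators of the family, 4 rose and 5 fell, with a median of -0.09, where 22.8% of all named genes rose and 16.8% fell. NFKB1, STAT5A and STAT3 rose by 0.39, 0.29 and 0.28, with 3 of 3, 4 of 4 and 2 of 5 probes up. PIM1, a kinase that inactivates BAD, fell by 0.71 (2 of 3 probes down) and DDIT3 (CHOP), a stress factor that induces BCL2L11, by 0.42 (2 of 2). RELA had the largest fall at its first probe, -1.30, but 2 of its 4 probes rose and 1 fell, so no direction can be given.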

How the data were processed

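RNA from blood collected in PAXgene tubes was hybridised to a 1-colour porcine Agilent array. Per the file headers, the scanner files hold intensities from Feature Extraction 10.10.1.1. The authors deposited log2 values that were quantile normalized and kept for probes called expressed, and these served as main values. All 29 member probes passed that filter, and no member spot was marked or saturated. Values recomputed from the intensities had r = 0.99997 with the authors' table. Each probe was fitted with limma 3.58.1 (lmFit and eBayes) in R 4.3.3, two-sided, with Benjamini-Hochberg adjustment over 39072 probes at 0.05. HS minus TN and breed contrasts came from breed plus climate, and within-breed contrasts and the interaction from 6 group means. Random effects of the study (pen, slaughter day, parents) could not be fitted. The model was tested on simulated data with independent noise for each pig, so likeness within pens, litters or slaughter days was not covered. Symbols came from the array files, no genome was used, and no coordinates are given. The members and lists were chosen with earlier results of these data known. Named genes are the members, up to 3 rises and 3 falls per pathway list, and the 3 genes most like a passing member, while BCL2A1, PMAIP1 and the cell markers were named after their values were seen. Array number limits the precision. Alternatives were other normalizations, background correction, filters, slide, array weights, covariates and left-out pigs.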

Additional observations from a re-analysis of the deposited data

Results flagged for a closer look

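Among 108 groups of the 18 member probes that represent a gene or passed in HS minus TN, the lowest or highest pig stood far from the rest of its group in 2. About 1 group in 20 would do so by chance. For BCL2L11 probe 1, F1 TN replicate 3 had 8.31, whereas the other F1 TN pigs lay between 9.04 and 9.23. Without this pig, HS minus TN of the probe was -0.08. For BNIP3L probe 5, F1 HS replicate 5 had 9.16, whereas the others lay between 10.15 and 10.68. Without it, HS minus TN of that probe was -0.77 over all breeds and -1.44 in F1 pigs, and both still passed.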

How the results depend on the processing

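Of the 29 member probes, 12 passed in HS minus TN over all breeds, 0 with the erythroid mean as covariate, 0 without F1 pigs and 7 with array brightness as covariate. In F1 pigs, 14 passed, 3 with the erythroid mean, 7 with array weights and 0 with array brightness. Of the representative probes, 3 passed, 0 with the erythroid mean, 0 without F1 pigs, 1 with array brightness and 6 with gene means. Array weights gave 1 in CR pigs, 2 for CR minus LW and 1 for F1 minus CR, beside 1715, 1524 and 152 of all probes, against 0, 421 and 72 without weights. Slide as a fixed block gave 1 for F1 minus CR, beside 87 of all probes. The cause was not tested. Leaving out 1 pig gave 11 to 16 over all breeds, 9 to 15 in F1 pigs (9 without F1 TN replicate 4) and 3 to 5 representative probes (5 without LW HS replicate 1). The other counts stayed at 0, or at 1 for CR minus LW. BAX probe 1 turned to -0.025 with the erythroid mean. For MCL1, probe 1 gave -0.031, whereas the mean over its 8 probes, another measurement, gave 0.067. Over fits without 1 pig, MCL1 probe 1 ranged from -0.076 to 0.024 and BCL2L11 probe 1 from -0.081 to 0.0012, turning sign. Dim probes (BCL2, BCL2L1 probe 2, BCL2L11 probe 4) limit what can be read from them. No paired analysis was possible because the labels give no shared replicate numbers.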

Other observations

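A pair of probes outside the member set carry a description, but not a gene name, that refers to a member. A probe described as similar to dog BCL2-associated X protein was 0.32 higher in HS pigs (SE 0.093, limma adjusted p = 0.00898, n = 35). A probe described as similar to rat BNIP3L was well above background on 21 of 35 arrays and differed by 0.04 (SE 0.065, adjusted p = 0.646), unlike the 6 named BNIP3L probes.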
